A study of Drosophila melanogaster with 16 samples.

Results

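Dahomey and Alstonville mitotypes were compared on the 1:2 P:C diet, in 4 Dahomey and 4 Alstonville RNA-seq libraries of Drosophila melanogaster larvae, which are 8 of the 16 libraries of the series. A mitotype is the maternally inherited mitochondrial genome (mtDNA) that a fly line carries, and P:C is the protein to carbohydrate ratio of the larval food. The libraries were chosen by their labels alone, and every gene of the table was examined. Of 17207 genes, 12750 had enough reads to test. The other 8 libraries come from larvae of either mitotype fed at 1:16 P:C and serve here to ask whether a difference recurred in larvae of the other diet.

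Every group shares a w1118 nuclear background. By the study's methods the lines were built by replacing chromosomes with the help of balancers, so that they differ in the mtDNA and could also differ in the dot chromosome (chromosome 4), whose variation was reduced by repeated backcrossing to w1118. No other allele, agent or age is named for any group. The labels name larvae of the last instar as the source, and the methods describe females at the wandering stage. The extraction protocol in the labels speaks instead of sorted cells, and the libraries are treated here as whole larvae. How many larvae went into a library is not given in the sources used here. The methods mention several independently maintained lines for the physiological work, and how many lines went into the RNA-seq libraries of a mitotype is not given in the sources used here. A mitotype difference therefore cannot be told apart from other differences between the lines used.

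Mitochondria make most of a cell's ATP by oxidative phosphorylation. A few of the proteins of this machinery are encoded in mtDNA, together with the mitochondrial rRNAs and tRNAs, and all others are encoded in the nucleus. Inside mitochondria the pyruvate dehydrogenase complex turns pyruvate into acetyl-CoA, and this complex is what pyruvate dehydrogenase kinase switches off by phosphorylation. Dietary protein and sugar change how much pyruvate, fat and amino acid a larva burns. Cells under oxidative or protein stress are known to raise glutathione S-transferases, cytochrome P450 enzymes and heat shock proteins.

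Libraries of 1 mitotype differed from each other about as much as, or more than, libraries of different mitotypes. Total counts on 1:2 P:C ran from 25997459 to 31896525 reads, and levels are given below as CPM (counts per 1000000 reads) scaled by TMM factors. The root mean square difference between a Dahomey and an Alstonville library was 1.26 on the log2 scale (median of 16 pairs), against 1.76 between Alstonville libraries and 1.29 between Dahomey libraries (medians of 6 pairs each). The first principal component held 74.8% of the variance and did not follow the mitotype. It placed Alstonville replicates 1 and 4 and Dahomey replicates 1 and 3 on one side and the remaining 4 libraries on the other.

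Transcripts of male tissue followed that component, although the methods describe female larvae. lncRNA:roX1, an RNA of the male dosage compensation complex, stood between 13.0 and 20.8 CPM in Alstonville replicates 1 and 4 and Dahomey replicates 1 and 3. It stood at 151.6 and 190.5 CPM in Alstonville replicates 2 and 3, and at 189 and 685 CPM in Dahomey replicates 2 and 4. The summed level of 20 testis and Y-linked genes was 2.76 to 3.78 CPM in the first 4 libraries, where 7 to 10 of the 20 had any read. In the others it was 205 and 138 CPM in Alstonville replicates 2 and 3 and 62.9 and 493 CPM in Dahomey replicates 2 and 4, and all 20 genes had reads. These libraries go against the description of the larvae as female in 2 Alstonville and 2 Dahomey libraries. In the 8 libraries on 1:16 P:C the level of lncRNA:roX1 was 113 to 503 CPM. The part of male transcripts in the differences below was not tested other than by fits that left out the 4 libraries on 1:2 P:C or carried the male transcript level as a covariate. Leaving out the 4 keeps Alstonville replicates 1 and 4 and Dahomey replicates 1 and 3 on 1:2 P:C. In bulk RNA, fewer cells of a type and less RNA per cell cannot be told apart.

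**Figure D1:**
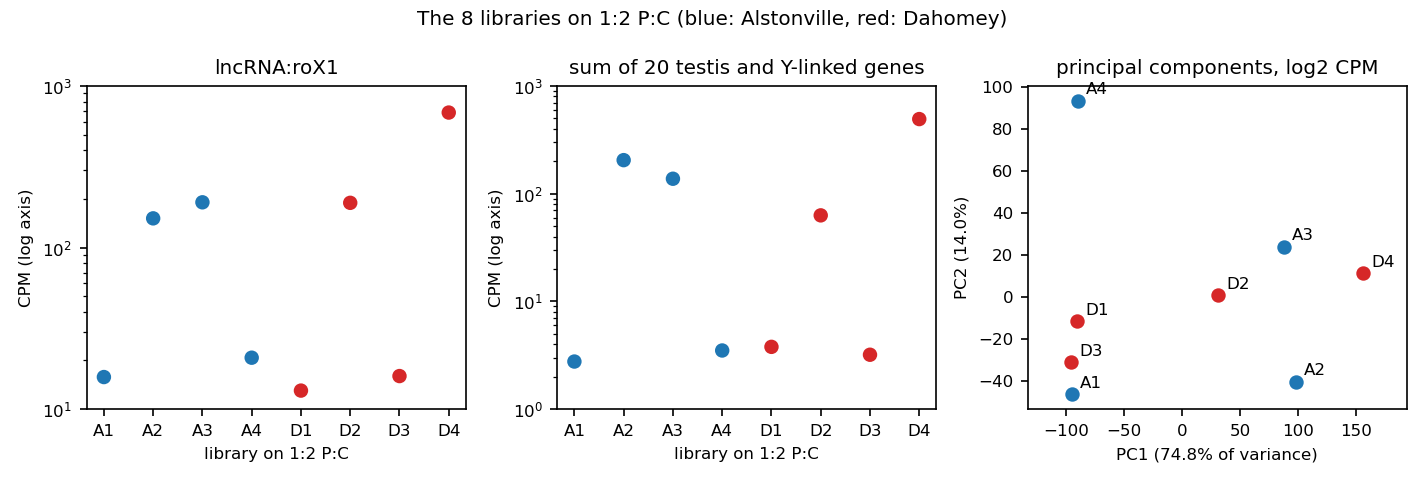
The 8 libraries on 1:2 P:C by the level of lncRNA:roX1 (left, CPM on a log axis), by the summed level of 20 testis and Y-linked genes (middle, CPM on a log axis) and by their first 2 principal components of log2 CPM (right). Blue points are Alstonville (A1 to A4) and red points Dahomey (D1 to D4). Male transcripts were high in A2, A3, D2 and D4, which lie to the right on PC1, and A4 stands apart on PC2.

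Alstonville replicate 4 stood apart in another way. The second component, with 13.98% of the variance, set it apart, and it had 1487 genes more than 1 log2 unit above and 2294 genes more than 1 log2 unit below the mean of its 3 group mates. The summed level of 20 larval muscle genes was 40261 CPM in this library and 5308 to 18528 CPM in the other 7. The 42 genes of midgut digestion summed to 43443 CPM against 9311 to 21602 CPM, and 12 fat body storage genes to 152982 CPM against 51977 to 90857 CPM. The 25 ecdysone response genes, which mark the approach of pupariation, were lowest there, at 1591 CPM, and ranged from 1938 to 5042 CPM in the others. Muscle, gut and fat body markers were present in every library.

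Against this spread 12 genes differed between the mitotypes on 1:2 P:C, at a Benjamini-Hochberg adjusted p below 0.05 over all tested genes in edgeR's quasi-likelihood test. These are 0.0941% of the genes tested. Of the 12, 8 were higher and 4 were lower in Dahomey. All 12 had 4 Dahomey libraries that did not overlap the 4 Alstonville libraries, which was so for 2.03% of all tested genes. At an unadjusted p below 0.05 there were 561 genes, which is 4.4% of those tested, with 241 higher (1.89%) and 320 lower (2.51%) in Dahomey. That count was 945 without Alstonville replicate 1, 846 without Alstonville replicate 2 and 1326 with 3 surrogate variables.

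Pyruvate dehydrogenase kinase, Pdk, was the most abundant of the 12. Pdk lies on chromosome arm 2R (9426439-9434638). Its level was 219, 190.3, 212 and 249 CPM in Alstonville replicates 1 to 4, and 103, 105, 117 and 80.4 CPM in Dahomey replicates 1 to 4. The lowest Alstonville library was above the highest Dahomey library. Pdk thus had a log2 fold change (Dahomey against Alstonville) of -1.11 ± 0.18 (SE, n = 4 a side, adjusted p = 0.0442). Leaving out any 1 of the 16 libraries gave between -1.18 and -1.01 for Pdk. It was called in 2 of the 16 fits that leave out 1 library, with an adjusted p of up to 0.545 over all alternatives. The subunits of the complex that this kinase inactivates are described with the gene lists.

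NT5E-2 had the largest fold among the 12. The gene encodes a predicted 5'-nucleotidase, an enzyme of the cell surface that takes phosphate from extracellular nucleotides. It lies at 2R, 17485002-17493169. Alstonville libraries held 5.09, 12.3, 7.26 and 12.8 CPM and Dahomey libraries 84.9, 87.7, 53.6 and 27.9 CPM. Every Dahomey library was above every Alstonville library, although the Dahomey libraries ranged widely among themselves. The log2 fold change was 2.77 ± 0.35 (SE, adjusted p = 0.0248). Its neighbour CG43110, which overlaps it by 1219 bases, held 7.94 to 14.03 CPM in Alstonville and 21.2 to 29.0 CPM in Dahomey (log2 fold change 1.21 ± 0.22 (SE), adjusted p = 0.0731). Whether the read counting used strand is not given in the sources used here, so reads of the shared stretch cannot be told apart.

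2 of the 12 are RNAs without a protein product. asRNA:CR43460, which lies inside the gene rdx at 3R, 13971733-13974675, stood at 0.282 to 0.343 CPM in the Alstonville libraries and at 2.26, 2.26, 2.06 and 1.75 CPM in the Dahomey libraries. The log2 fold change was 2.73 ± 0.38 (SE, adjusted p = 0.0296). Counts per library for asRNA:CR43460 were low, between 7 and 65 reads. The host gene rdx itself, which encodes an adaptor of a ubiquitin ligase, had means of 156 and 159 CPM in Alstonville and Dahomey (log2 fold change 0.03, adjusted p = 0.989). The second, lncRNA:CR45018 at X, 13304005-13308004, was lower in Dahomey, with 19.4, 18.1, 18.4 and 15.2 CPM in Alstonville and 11.9, 9.97, 10.7 and 8.39 CPM in Dahomey (log2 fold change -0.80 ± 0.11 (SE), adjusted p = 0.0299). It lies within IP3K2, which encodes an inositol trisphosphate kinase. IP3K2 had a log2 fold change of -0.52 ± 0.12 (SE) and an adjusted p of 0.252. Without strand, reads of the RNA and of its host gene cannot be told apart.

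The 2 remaining genes that were lower in Dahomey were Est-Q and CG45061. Est-Q encodes a carboxylesterase, one of a family known for the breakdown of dietary and foreign esters, and lies at 3L, 21501421-21503959, within the span of Glg1. It stood at 37.8, 28.9, 47.5 and 45.3 CPM in Alstonville and at 20.5, 20.7, 17.1 and 18.7 CPM in Dahomey (log2 fold change -1.05 ± 0.17 (SE), adjusted p = 0.0442). CG45061, at X, 9871098-9871702, stood at 1.34 to 2.33 CPM in Alstonville and 0.43 to 0.728 CPM in Dahomey (log2 fold change -1.69 ± 0.27 (SE), adjusted p = 0.0442). The groups did not overlap for either gene, and the Alstonville libraries of Est-Q ranged more widely than its Dahomey libraries.

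The other genes that were higher in Dahomey differed by smaller folds. Axud1, the fly relative of the mammalian CSRNP nuclear proteins (2L, 2365345-2370137), stood at 29.4 to 33.8 CPM in Alstonville and 38.7 to 48.2 CPM in Dahomey. Its log2 fold change of 0.50 ± 0.08 (SE, adjusted p = 0.0442) was the smallest of the 12. RSG7, a regulator of G-protein signalling (X, 16838173-16844433), stood at 3.86 to 4.63 CPM in Alstonville and at 7.08, 6.70, 5.82 and 10.2 CPM in Dahomey (log2 fold change 0.86 ± 0.14 (SE), adjusted p = 0.0442). dpr3 encodes an immunoglobulin-domain protein of the neuronal surface and lies at 2L, 2058790-2109878. It stood at 1.29 to 1.97 CPM in Alstonville and at 3.26 to 3.86 CPM in Dahomey, with a log2 fold change of 1.10 ± 0.18 (SE, adjusted p = 0.0442).

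As with NT5E-2, 3 other called genes lay beside a gene that was called or had an adjusted p below 0.1. PIG-A, the enzyme of the first step in the synthesis of glycosylphosphatidylinositol anchors, and CG34195 lie 3138 bases apart on 2R (17737622-17739685 and 17733238-17734483). PIG-A stood at 3.67, 3.77, 3.97 and 4.55 CPM in Alstonville and at 6.84, 6.09, 6.49 and 6.47 CPM in Dahomey (log2 fold change 0.70 ± 0.11 (SE), adjusted p = 0.0442). CG34195 stood at 1.69 to 2.50 CPM and at 3.64 to 4.48 CPM (log2 fold change 0.97 ± 0.16 (SE), adjusted p = 0.0442). Both were higher in all 4 Dahomey libraries than in any Alstonville library. CG34195 overlaps Hyccin at its end, where reads cannot be told apart without strand. On 3L, CG11619 (18985905-18988323) lies 412 bases from CG34256. CG11619 stood at 3.09, 1.69, 1.71 and 1.29 CPM in Alstonville and at 7.25, 4.27, 6.14 and 6.15 CPM in Dahomey (log2 fold change 1.61 ± 0.28 (SE), adjusted p = 0.0498), and CG34256 at 0.201 to 0.794 CPM and 1.18 to 1.88 CPM (log2 fold change 1.95 ± 0.38 (SE), adjusted p = 0.0926). CG11619 was the last gene inside the threshold. The first outside it was CG42808, with 16.3, 28.8, 25.6 and 19.3 CPM in Alstonville, 11.8, 6.24, 9.27 and 9.69 CPM in Dahomey and an adjusted p of 0.0504.

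**Figure D2:**
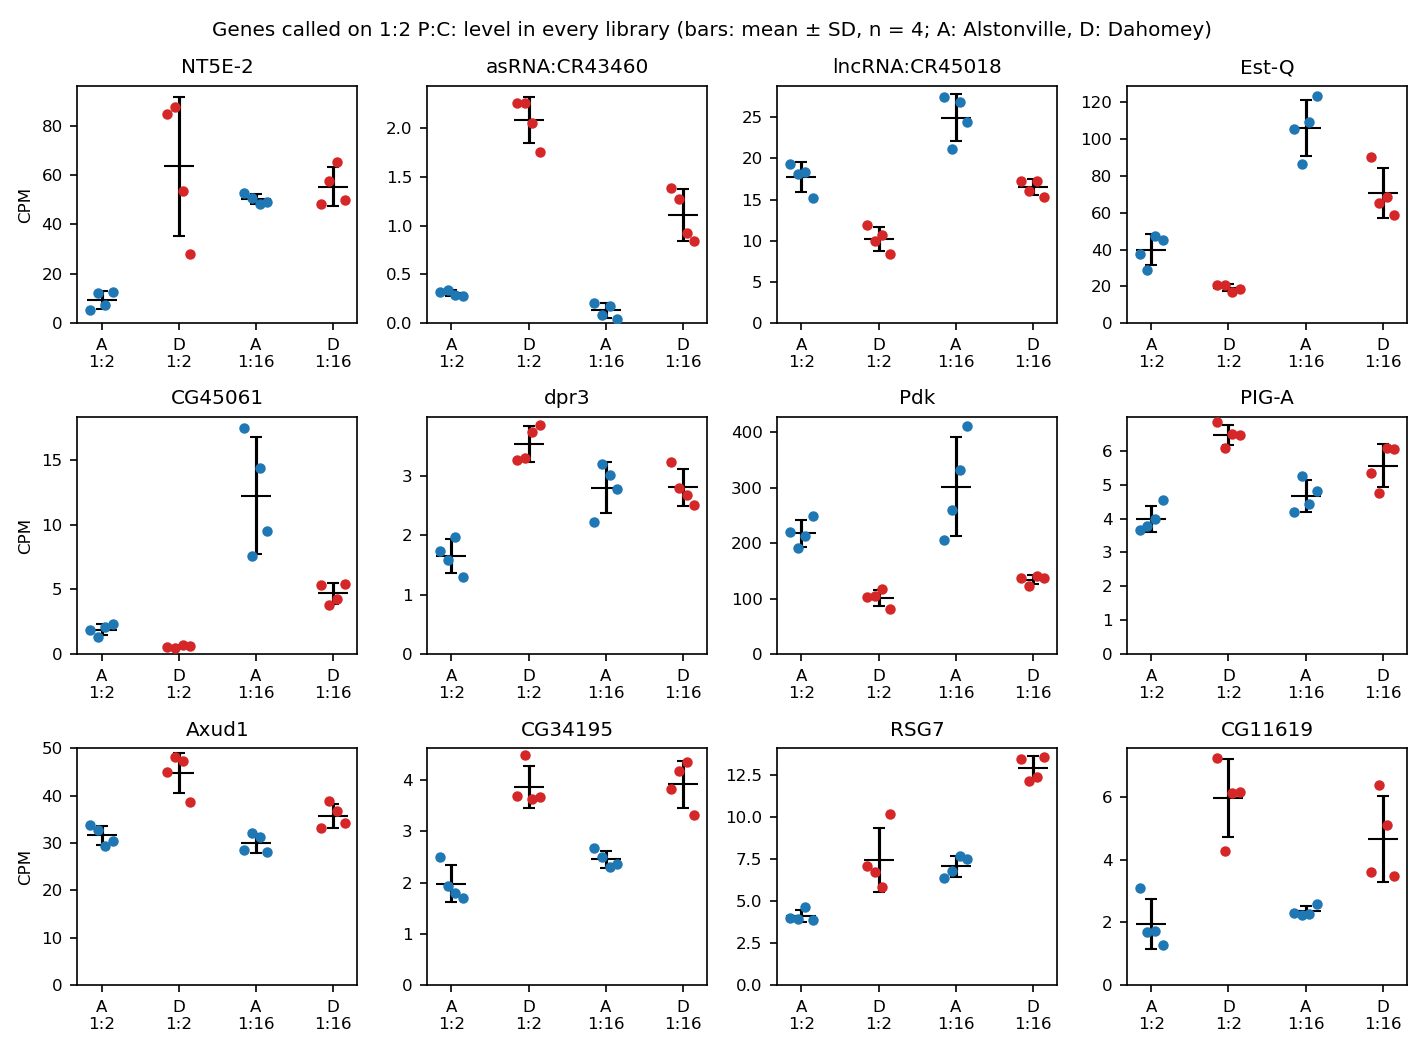
Level (CPM, linear axis from 0) of the 12 genes called on 1:2 P:C in all 16 libraries, by mitotype (A, Alstonville, blue; D, Dahomey, red) and diet. Bars are the mean ± SD of 4 libraries. On 1:2 P:C no Dahomey point overlaps an Alstonville point for any of the 12 genes, while on 1:16 P:C NT5E-2, Est-Q, dpr3 and PIG-A overlap.

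How many genes passed depended on the fit. All 12 kept their sign in every one of the 30 alternative fits in which they were tested. All 12 were called by DESeq2, by limma with 0 to 3 surrogate variables and by the fit with the male transcript level as a covariate, which called 88, 20 to 85 and 21 genes. The fit of the 8 libraries on 1:2 P:C alone called 0 genes, with 307 at an unadjusted p below 0.05, and leaving out 1 library left between 0 and 10 calls. Among Dahomey libraries, replicates 2 and 3 of 1:2 P:C and replicates 2, 3 and 4 of 1:16 P:C each took the count to 0 when left out. It was 8 without Alstonville replicate 1 and 10 without Alstonville replicate 4, and at most 5 without any of the other 14 libraries. The spread around the group mean was smaller on 1:16 P:C than in 7 of the 8 libraries on 1:2 P:C (root mean square deviation 0.27 to 0.55 against 0.51 to 1.42 on the log2 scale), and the fit gives both 1 common spread. Over the 16 fits that leave out 1 library NT5E-2 was called in 11, asRNA:CR43460 in 9, lncRNA:CR45018 in 5, CG45061 in 3, Pdk and Est-Q in 2 each, dpr3 in 0 and each of the other 5 genes in 1. Without the 4 libraries with male transcripts 3 genes were called, and NT5E-2 was the only one of the 12 among them.

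The same 12 genes were then read in the larvae of the 1:16 P:C diet, whose 8 libraries are separate from those on 1:2 P:C. Both diets share 1 estimate of spread in the fit, so the calls on one are not independent of those on the other. On 1:16 P:C 15.3% of all tested genes were called. Of the 12, all had the same sign, dpr3 with a value near 0, and 8 were called. These 8 were Pdk, Est-Q, asRNA:CR43460, lncRNA:CR45018, CG45061, CG34195, RSG7 and CG11619. Pdk had a log2 fold change of -1.17 ± 0.18 (SE, adjusted p = 0.00163) on 1:16 P:C, next to its -1.11 on 1:2 P:C. asRNA:CR43460 had 3.06 ± 0.39 (SE, adjusted p = 8.37e-04) and RSG7 had 0.87 ± 0.14 (SE, adjusted p = 0.00226). All 8 genes named as called on 1:16 P:C were thus called with the same sign on both diets. The mitotypes also differed on 1:16 P:C in a list that marks stage, the 10 glue genes of the salivary gland. These genes are switched on late in larval life. Their median log2 fold change was 6.88 on 1:16 P:C, with 7 called, and 0.09 on 1:2 P:C. The 22 male genes had a median of 3.36 on 1:16 P:C, with 0 called, and 0.69 on 1:2 P:C. lncRNA:roX1 had a log2 fold change of 0.25 on 1:16 P:C (adjusted p = 0.88). The summed level of the 20 testis and Y-linked genes on 1:16 P:C was 5.62 to 17.3 CPM in Alstonville and 34.8 to 96.0 CPM in Dahomey. Testis transcripts thus stood higher in every Dahomey library on 1:16 P:C, although no male gene was called and levels of lncRNA:roX1 overlapped. The part of stage or sex in the 1:16 P:C values was not tested.

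The log2 fold change of dpr3 on 1:16 P:C was 0.00 ± 0.18 (SE), and its sign turned under several settings. Of the 561 genes at an unadjusted p below 0.05 on 1:2 P:C, 435 had the same sign on 1:16 P:C, which is 77.5% beside 69.3% over all tested genes.

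NT5E-2 differed between the diets. On 1:16 P:C it stood at 52.9, 50.8, 48.2 and 48.9 CPM in Alstonville and at 48.3, 57.4, 65.4 and 49.8 CPM in Dahomey, so that the groups overlapped (log2 fold change 0.14 ± 0.33 (SE), adjusted p = 0.781). Alstonville larvae on 1:2 P:C were the low group among the 4. The interaction of mitotype and diet was -2.63 ± 0.47 (SE) on the log2 scale for NT5E-2 (adjusted p = 0.0315), in a test that called 0.784% of all genes. It missed the threshold without the 4 libraries with male transcripts (adjusted p = 0.0803). Leaving out any of 10 libraries also lost it, with the adjusted p rising to 0.0848 at most. dpr3 had a like pattern, with an interaction of -1.10 ± 0.25 (SE) and an adjusted p of 0.0568.

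Among the 20 genes nearest to the threshold whose libraries did not overlap, 2 differed between the diets by the interaction test. Dpp10, a relative of the dipeptidyl peptidases, stood at 5.51 to 8.44 CPM in Alstonville and 9.82 to 15.3 CPM in Dahomey on 1:2 P:C. On 1:16 P:C it stood at 18.1 to 21.5 CPM in Alstonville and 14.3 to 17.1 CPM in Dahomey. The order of the groups was opposite on the second diet, and the interaction was -1.06 ± 0.20 (SE, adjusted p = 0.0377). CG42700 stood at 6.11 to 7.87 CPM in Alstonville and 8.51 to 11.1 CPM in Dahomey on 1:2 P:C, and at 15.9 to 18.7 CPM and 11.6 to 12.6 CPM on 1:16 P:C (interaction -0.91 ± 0.14 (SE), adjusted p = 0.0207). The interaction of Dpp10 and of CG42700 missed the threshold without the 4 libraries with male transcripts (adjusted p = 0.0945 and 0.0861), and it was lost when any of 12 and any of 5 of the 16 libraries were left out.

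**Figure D3:**
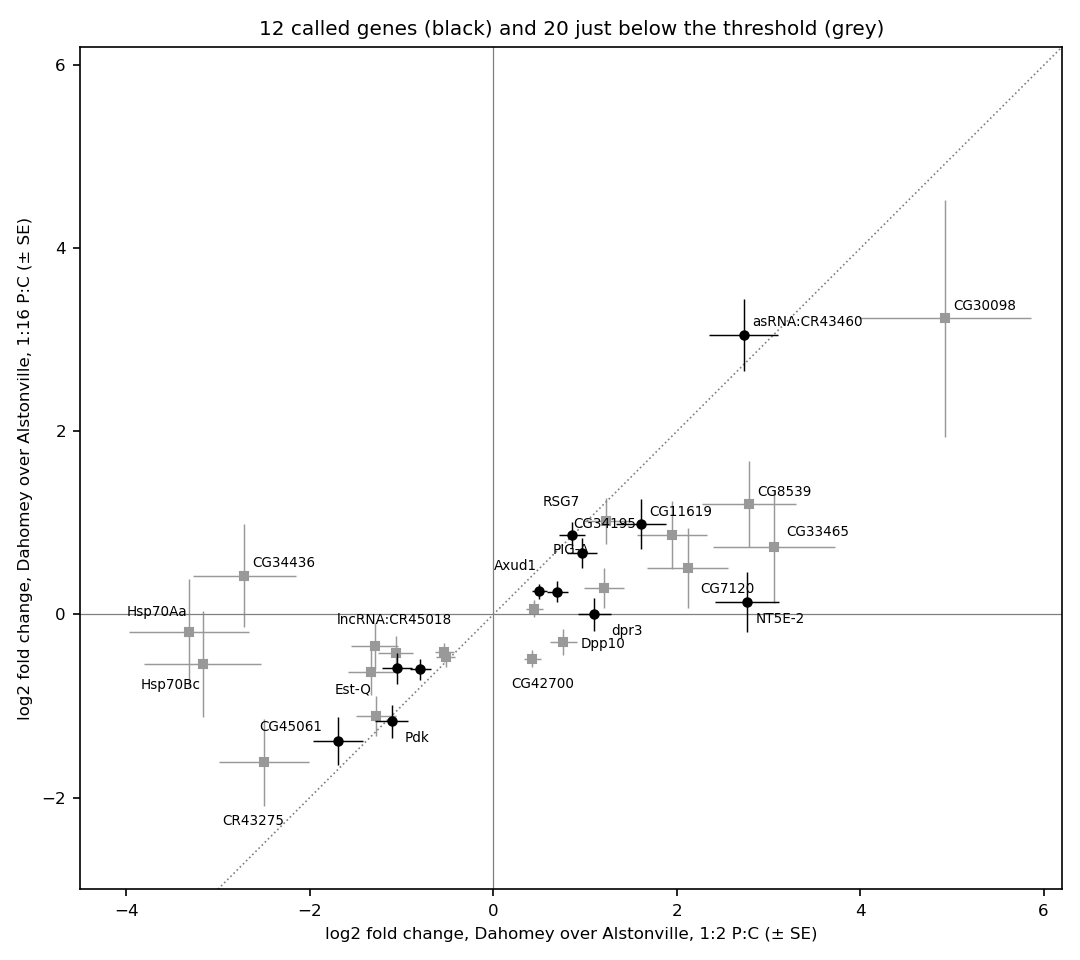
Log2 fold change of Dahomey over Alstonville on 1:2 P:C (horizontal axis) and on 1:16 P:C (vertical axis) for the 12 called genes (black circles) and the 20 genes just below the threshold (grey squares), with bars of 1 SE. The dotted line marks equal values. Pdk, RSG7 and asRNA:CR43460 lie near the line, and NT5E-2 lies near 0 on the vertical axis. The gene symbols of some grey squares are left out.

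Hsp68 and the Hsp70 genes stood at lower levels in every Dahomey library than in any Alstonville library. None was called by edgeR with all 16 libraries. Hsp70 and Hsp68 chaperones bind unfolded proteins and are nearly silent in unstressed larvae, and Hsf is the factor that turns them on. Of the 16 tested members of the list of inducible and small heat shock genes, 9 had an unadjusted p below 0.05. All 9 were lower in Dahomey, and 7 did not overlap between mitotypes. Over all tested genes 4.4% had such a p and 2.03% did not overlap. With all 16 libraries edgeR called no member of the list, and 8 of the 88 genes called by DESeq2 were members. Without Alstonville replicate 1 edgeR called 1 member, and without Alstonville replicate 2 it also called 1. The 9 at an unadjusted p below 0.05 were Hsp68, the 6 tested Hsp70 copies, stv and Hsf.

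Hsp70Aa stood at 51.8, 8.04, 6.76 and 6.72 CPM in Alstonville and at 2.26, 1.90, 1.74 and 1.47 CPM in Dahomey (log2 fold change -3.32 ± 0.65 (SE), adjusted p = 0.0926). Alstonville replicate 1 was far above its group mates, yet those 3 were also above all 4 Dahomey libraries. Without this library the log2 fold change of Hsp70Aa was -1.96, which is a smaller difference. Hsp70Aa was nevertheless called in 1 of the 16 fits that leave out 1 library. Hsp68 had 214, 114, 94.6 and 98.9 CPM in Alstonville against 46.3, 67.4, 50.6 and 42.5 CPM in Dahomey (log2 fold change -1.34 ± 0.25 (SE), adjusted p = 0.0772), and -0.99 without Alstonville replicate 1. The other Hsp70 copies ran in parallel. Hsp70Ab was at 6.19 to 55.8 CPM in Alstonville and 1.54 to 2.55 CPM in Dahomey, and Hsp70Bc at 1.09 to 9.03 CPM and 0.287 to 0.486 CPM. The Hsp70 copies are nearly identical in sequence, so reads may be split among them and the copies are not independent of each other.

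stv, a co-chaperone that works with Hsp70, stood at 186, 103, 193 and 207 CPM in Alstonville and at 95.5, 105, 81.9 and 103 CPM in Dahomey (log2 fold change -0.84 ± 0.19 (SE), adjusted p = 0.175). Here Alstonville replicate 2 was within the Dahomey range. Hsf had 48.0 to 68.0 CPM in Alstonville and 44.1 to 50.0 CPM in Dahomey (log2 fold change -0.25 ± 0.11 (SE), adjusted p = 0.976). Not every chaperone shared the pattern. Hsp83, the abundant Hsp90 of flies, stood at 1502 to 1959 CPM in Alstonville and 1609 to 2013 CPM in Dahomey (log2 fold change 0.03 ± 0.13 (SE)). Small heat shock genes, which the ecdysone pulse is known to raise at the end of larval life, ranged widely within each mitotype. Hsp23 stood at 2592, 1768, 285 and 139 CPM in Alstonville and at 1392, 1519, 2077 and 137 CPM in Dahomey (log2 fold change 0.10 ± 0.89 (SE)).

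On 1:16 P:C the Hsp70 differences were small. Hsp70Aa had a log2 fold change of -0.19 ± 0.59 (SE), and its interaction of mitotype and diet had an adjusted p of 0.0961. A difference between diets was therefore not established for it. Of the 27 tested constitutive and mitochondrial chaperones and proteases, 1, Sec63, had an unadjusted p below 0.05, beside 4.4% of all genes. The list's median log2 fold change was -0.07.

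**Figure D4:**
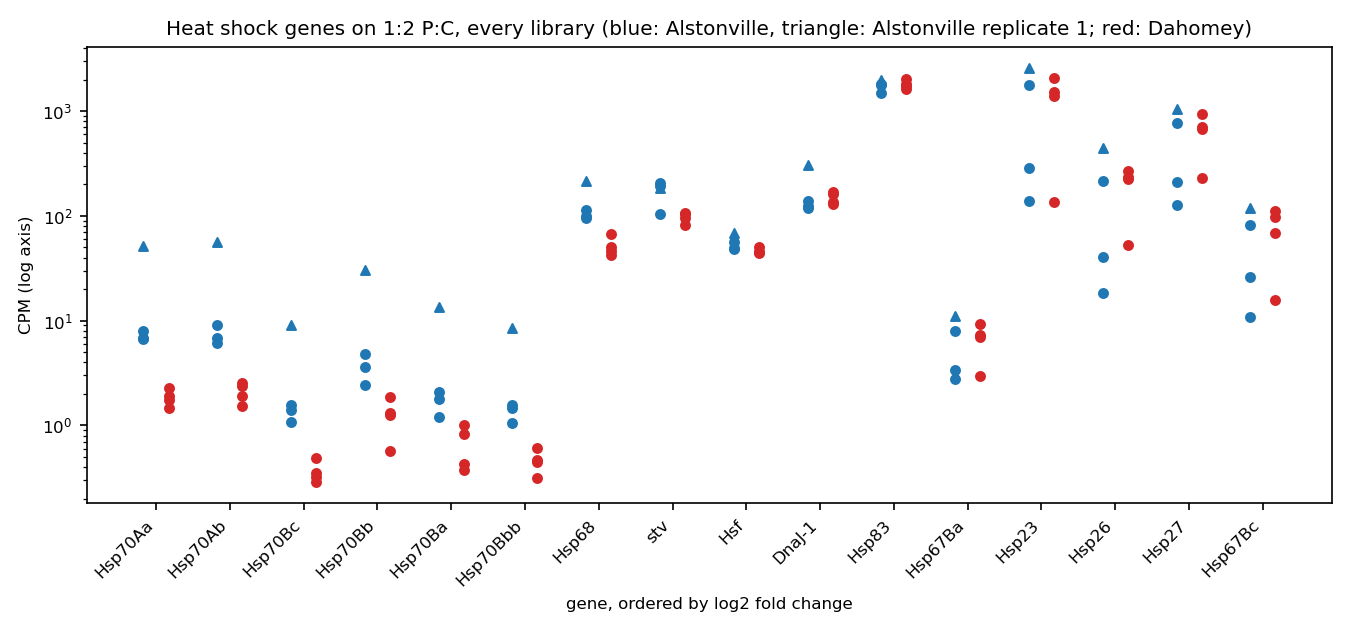
Level (CPM, log axis) of the 16 tested heat shock genes in each library on 1:2 P:C, ordered by log2 fold change. Blue points are Alstonville, with replicate 1 as a triangle, and red points are Dahomey. All red points lie below all blue points for the 6 Hsp70 copies and for Hsp68, while the small heat shock genes on the right overlap widely.

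The list around Pdk holds the dehydrogenase complex that it phosphorylates and other genes that make, carry or use pyruvate or acetyl-CoA. All 14 tested genes of pyruvate metabolism had a negative log2 fold change, with a median of -0.36, beside 0.03 over all tested genes. But Pdk was the only one called, and 2 had an unadjusted p below 0.05, beside 4.4% of all genes. The second was AcCoAS, which makes acetyl-CoA from acetate, with 95.7, 131, 217 and 475 CPM in Alstonville and 70.1 to 138 CPM in Dahomey (log2 fold change -1.11 ± 0.39 (SE), adjusted p = 0.764). The highest value was again that of Alstonville replicate 4. The subunits of the dehydrogenase itself overlapped between mitotypes. Pdha, the catalytic alpha subunit, stood at 55.1, 54.1, 64.9 and 153 CPM in Alstonville and at 63.2, 78.9, 53.9 and 53.6 CPM in Dahomey, and Pdhb at 50.3 to 122 CPM and 51.0 to 66.2 CPM. Without Alstonville replicate 4 the median of the list was 0.09, of the opposite sign, whereas Pdk still stood at -1.04.

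This library turned the sign of most lists. Of 24 lists, 17 had a median below 0, and 15 of these were above 0 without Alstonville replicate 4. The median of the list of inducible and small heat shock genes was -0.55 with it and -0.52 without it. The median of 33 nuclear subunits of complex I, the first enzyme of the respiratory chain, was -0.19 with it and 0.10 without it, and 0 of the 33 had an unadjusted p below 0.05, nor did DESeq2 call any. For 22 genes of fatty acid beta-oxidation the values were -0.16 and 0.06. Acox57D-d, an acyl-CoA oxidase, was the only member of that list at an unadjusted p below 0.05, beside 4.4% of all genes. It stood at 15.5, 10.02, 21.0 and 33.5 CPM in Alstonville and 6.66 to 9.43 CPM in Dahomey (log2 fold change -1.29 ± 0.27 (SE), adjusted p = 0.133).

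**Figure D5:**
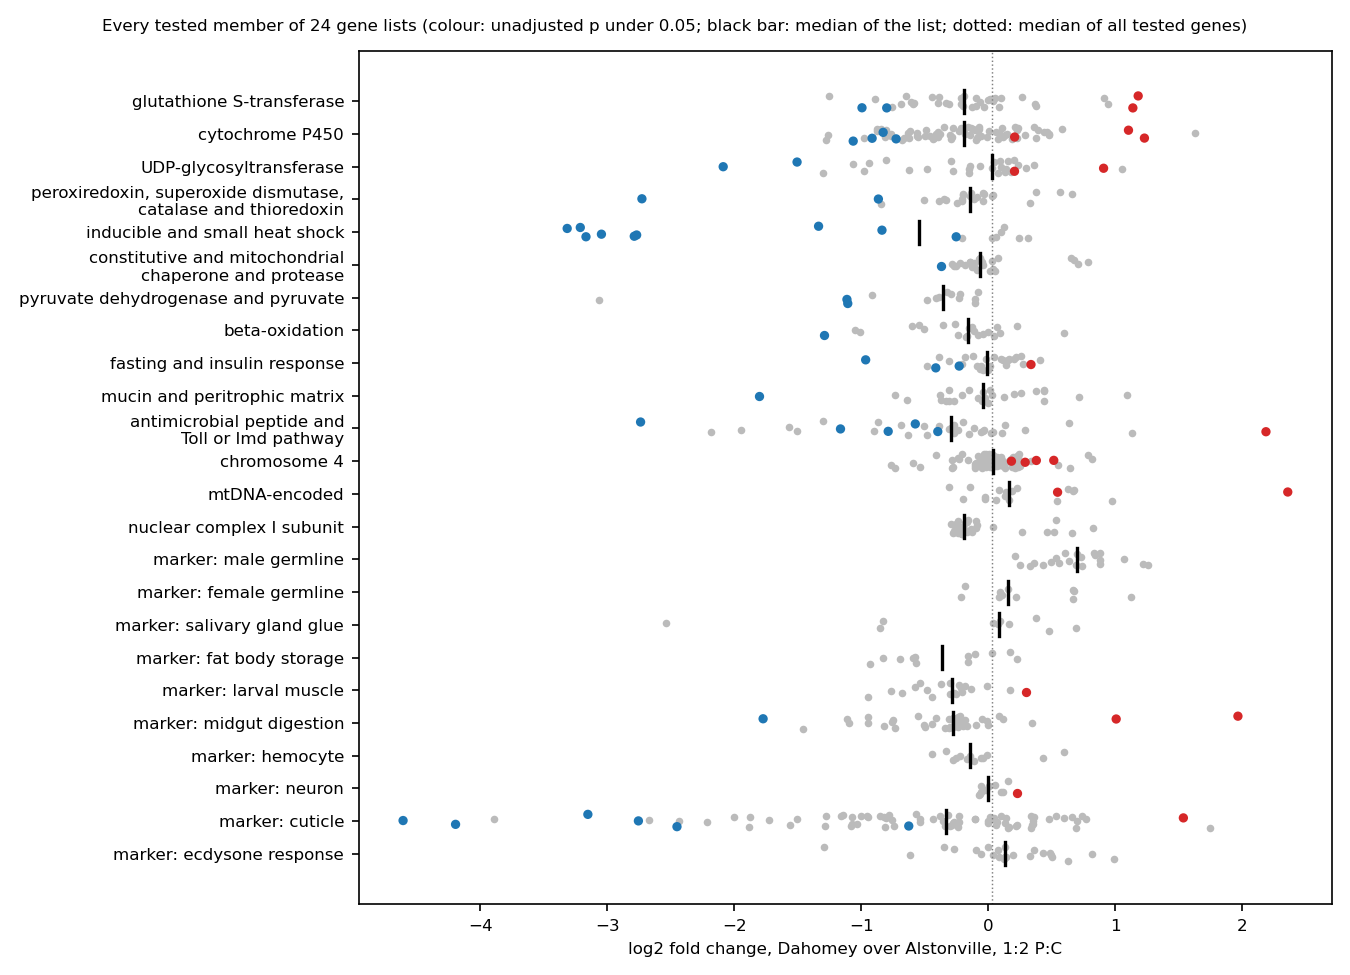
Log2 fold change of Dahomey over Alstonville on 1:2 P:C for every tested member of 24 gene lists. Members at an unadjusted p below 0.05 are red where higher and blue where lower in Dahomey, other members are grey, black bars mark the median of each list, and the dotted line marks the median of all tested genes (0.03). The heat shock list has the lowest median, at -0.55, and 9 blue points. The list of genes named for the male germline, which includes roX RNAs and Y-linked genes, has the highest, at 0.69.

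Detoxification enzymes gave both directions. Glutathione S-transferases couple glutathione to reactive compounds. Of 37 tested, 2 were higher and 2 lower in Dahomey at an unadjusted p below 0.05, beside 4.4% of all genes. None was called by edgeR with all 16 libraries, while DESeq2 called 1. Limma with 3 surrogate variables called 3, which were GstE1, GstE5 and GstE8. GstE1 stood at 6.70, 7.17, 7.11 and 18.1 CPM in Alstonville and at 19.1, 22.3, 21.8 and 22.5 CPM in Dahomey (log2 fold change 1.14 ± 0.27 (SE), adjusted p = 0.258). Alstonville replicate 4 alone lay near the Dahomey libraries, and without it GstE1 was called at a log2 fold change of 1.61 (adjusted p = 4.91e-04). GstE5, 5381 bases away in the same cluster of genes, stood at 0.735, 1.21, 1.24 and 5.39 CPM in Alstonville and at 3.78, 8.89, 2.56 and 3.99 CPM in Dahomey, with groups that overlapped by that library (log2 fold change 1.18 ± 0.54 (SE), adjusted p = 0.976). Without it the log2 fold change of GstE5 was 2.17 (adjusted p = 0.0731). Without the 4 libraries with male transcripts it was 0.10 for GstE5 and 0.76 for GstE1. That fit keeps only replicates 1 and 4 of Alstonville, so replicate 4 weighs more in it than in the fit of all libraries. Neighbouring GstE8 was opposite, at 6.56 to 15.01 CPM in Alstonville and 3.32 to 7.17 CPM in Dahomey (log2 fold change -0.80 ± 0.27 (SE)).

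Cytochrome P450 enzymes oxidise hormones and foreign compounds. Of 82 tested genes, 3 were higher and 4 lower at an unadjusted p below 0.05, beside 4.4% of all genes. None was called in the edgeR fit that gave the 12 genes, and DESeq2 called 3. Cyp6g2 and Cyp6t3 lie 304 bases apart on 2R and had opposite signs. Cyp6g2 stood at 4.15, 4.77, 3.61 and 2.53 CPM in Alstonville and at 1.70, 1.97, 1.77 and 1.75 CPM in Dahomey (log2 fold change -1.06 ± 0.19 (SE), adjusted p = 0.0635). Cyp6t3, which takes part in ecdysone synthesis, stood at 9.26, 4.27, 8.98 and 11.5 CPM in Alstonville and at 20.9, 20.1, 20.5 and 18.2 CPM in Dahomey (log2 fold change 1.23 ± 0.25 (SE), adjusted p = 0.112). Neither overlapped between mitotypes. Both were called in the fit with 3 surrogate variables (adjusted p = 0.00426 and 0.00176 by limma) and in edgeR's fit with the male covariate. Without Alstonville replicate 4 edgeR called Cyp6g2 (adjusted p = 0.0115). Cyp12c1, a mitochondrial P450, stood at 8.03 to 25.6 CPM in Alstonville and 34.2 to 51.4 CPM in Dahomey (log2 fold change 1.10 ± 0.28 (SE), adjusted p = 0.324) and was called on 1:16 P:C, with a log2 fold change of 1.93 (adjusted p = 0.00155). Among 25 peroxiredoxins, superoxide dismutases and other antioxidant genes, 2 had an unadjusted p below 0.05, beside 4.4% of all genes. Both were lower in Dahomey. One was Gclm, a subunit of the enzyme that starts glutathione synthesis, at 47.0 to 89.7 CPM in Alstonville and 22.2 to 46.9 CPM in Dahomey. Of 31 UDP-glycosyltransferases 2 were higher and 2 lower at an unadjusted p below 0.05, beside 4.4% of all genes, and none was called by edgeR.

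Genes of the mtDNA itself were of interest because the lines were built to differ there. Of 19 tested, 2 had an unadjusted p below 0.05, beside 4.4% of all genes, and both were RNAs of the mitochondrial translation machinery. Neither was called in the edgeR fit that gave the 12 genes, while DESeq2 called both. Of the 2, trnY was also called by edgeR with the male covariate and by limma with 3 surrogate variables (adjusted p = 0.00348 by limma). srRNA, the small mitochondrial ribosomal RNA, stood at 62.4, 53.1, 53.9 and 49.2 CPM in Alstonville and at 87.2, 81.8, 74.1 and 75.9 CPM in Dahomey (log2 fold change 0.54 ± 0.13 (SE), adjusted p = 0.26). trnY, the tRNA for tyrosine, stood at 0.0402 to 0.184 CPM in Alstonville and 0.43 to 0.733 CPM in Dahomey (log2 fold change 2.36 ± 0.44 (SE), adjusted p = 0.0731), from 1 to 23 reads a library. The groups did not overlap for either RNA. trnY was called on 1:16 P:C with a log2 fold change of 2.39 (adjusted p = 0.00325), and srRNA had 0.00 there. The libraries were made from poly(A)-selected RNA.

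Messenger RNAs of the mtDNA overlapped between mitotypes on 1:2 P:C. COX1, the catalytic subunit of cytochrome c oxidase, stood at 8405, 8279, 8048 and 12684 CPM in Alstonville and at 10465, 11333, 9756 and 10309 CPM in Dahomey (log2 fold change 0.16 ± 0.17 (SE)). ND4, a complex I subunit, stood at 635 to 1167 CPM and at 746 to 938 CPM (log2 fold change 0.06 ± 0.19 (SE)). In both, 3 Alstonville libraries lay below the Dahomey libraries and replicate 4 lay above them. The median log2 fold change over the 19 mtDNA genes was 0.16, and 0.34 without that library.

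Of 37 tested immune genes, 1 was higher and 5 lower in Dahomey at an unadjusted p below 0.05, beside 4.4% of all genes. None was called by edgeR or by DESeq2, and limma with 3 surrogate variables called 1, spz. The median log2 fold change was -0.30, and 0.08 without Alstonville replicate 3. PGRP-SD, a receptor for bacterial cell wall, stood at 15.4, 16.7, 32.5 and 19.4 CPM in Alstonville and at 11.7, 10.2, 12.2 and 14.6 CPM in Dahomey (log2 fold change -0.79 ± 0.25 (SE), adjusted p = 0.581). AttB, an antibacterial peptide, stood at 1.26, 1.74, 112 and 28.0 CPM in Alstonville and at 1.23 to 12.9 CPM in Dahomey. Its level in Alstonville rested on replicate 3. Of 28 genes of fasting and insulin response, 1 was higher and 3 lower at an unadjusted p below 0.05, beside 4.4% of all genes, and the median was -0.01. CrebB, the fly CREB factor, stood at 73.2, 71.5, 78.2 and 78.0 CPM in Alstonville and at 61.7, 54.7, 59.3 and 50.0 CPM in Dahomey (log2 fold change -0.41 ± 0.09 (SE), adjusted p = 0.148), without overlap, and was called on 1:16 P:C at -0.58 (adjusted p = 0.00155). Of 27 mucins and genes of the peritrophic matrix 1 had an unadjusted p below 0.05.

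Marker lists of tissues held no gene called in the edgeR fit that gave the 12 genes. DESeq2 called 1, in the midgut list. Jon74E, a midgut serine protease, stood at 43.2, 228, 243 and 51.1 CPM in Alstonville and at 535, 633, 542 and 495 CPM in Dahomey (log2 fold change 1.96 ± 0.49 (SE), adjusted p = 0.316), although the median of the 42 midgut genes was -0.28. In Alstonville it was low in replicates 1 and 4, which lacked male transcripts. Without the 4 libraries that carried them the log2 fold change of Jon74E was 3.54, and it was called (adjusted p = 0.0197). Of 82 cuticle genes 7 had an unadjusted p below 0.05, beside 4.4% of all genes. The log2 fold changes of Cpr78Cc, Cpr47Ec, Lcp65Ag3 and Ccp84Ab, between -4.61 and -2.75, turned positive without Alstonville replicate 4. The 22 male genes had a median of 0.69 (-2.08 to 1.58 with 1 library left out) with 0 at an unadjusted p below 0.05, and DESeq2 called none.

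By position the differences were spread over the genome. The share of genes at an unadjusted p below 0.05 was 4.34% on 2L, 5.59% on 2R, 4.88% on 3L, 4.24% on 3R and 2.59% on the X. These shares moved with the fit, from 3.72% to 12.7% on 2R and from 1.41% to 7.67% on the X, so the order of the arms is a description of 1 fit. Chromosome 4, in which the lines could differ by their construction, had 4 of 94 genes (4.26%), all 4 higher in Dahomey and none called by edgeR or by DESeq2. They were asRNA:CR44029, CR32010, Cadps and ci, with log2 fold changes of 0.18 to 0.51. ci, the transcription factor of the Hedgehog pathway, stood at 131, 122, 116 and 108 CPM in Alstonville and at 153, 150.3, 153 and 128 CPM in Dahomey. Of the 12 called genes 4 lay on 2R, 3 on the X, 2 each on 2L and 3L, and 1 on 3R.

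Among windows of 1 Mb with at least 20 tested genes, the highest share was that of 2R, 15000001-16000000, with 15 of 96 genes (15.6%), 5 higher and 10 lower in Dahomey. None of the 15 was called in the edgeR fit that gave the 12 genes, and DESeq2 called 5 in this window. 9 of the 15 also had an unadjusted p below 0.05 with the same sign on 1:16 P:C, where 49 of the 96 genes of the window (51.0%) had such a p. The window holds the pseudogene CR43275, at 6.70, 8.59, 40.6 and 35.4 CPM in Alstonville and 3.33 to 4.37 CPM in Dahomey (log2 fold change -2.50 ± 0.49 (SE), adjusted p = 0.0926). It lies 124 bases from CR43105, which was opposite, at 0.176, 2.11, 3.03 and 0.603 CPM in Alstonville and 10.6, 7.06, 6.77 and 4.94 CPM in Dahomey (log2 fold change 2.30 ± 0.68 (SE), adjusted p = 0.522). CG33465, nested in the gene tun, stood at 0.0263 to 1.53 CPM and 4.94 to 7.22 CPM (log2 fold change 3.06 ± 0.66 (SE), adjusted p = 0.148). Hex-C, a hexokinase that phosphorylates glucose, stood at 0.805 to 1.94 CPM in Alstonville and 0.351 to 0.728 CPM in Dahomey (log2 fold change -1.33 ± 0.33 (SE), adjusted p = 0.295) and was called on 1:16 P:C at -1.68 (adjusted p = 0.00495). The window was picked for its share among many, so the share is a description only.

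Other genes lay just outside the threshold. sas, a cell surface receptor of epithelia, stood at 128, 121, 90.9 and 121 CPM in Alstonville and at 77.6, 83.9, 86.8 and 69.6 CPM in Dahomey (log2 fold change -0.53 ± 0.10 (SE), adjusted p = 0.0881), with Alstonville replicate 3 close to the Dahomey libraries. CG15611 stood at 35.6 to 48.7 CPM and at 28.3 to 30.3 CPM (log2 fold change -0.52 ± 0.10 (SE), adjusted p = 0.0926). sotv, an enzyme of heparan sulfate synthesis, was opposite in sign, at 11.5 to 13.4 CPM in Alstonville and 15.7 to 18.8 CPM in Dahomey (log2 fold change 0.45 ± 0.09 (SE), adjusted p = 0.106). Sp212, a serine protease, stood at 12.6 to 33.1 CPM in Alstonville and 7.12 to 8.88 CPM in Dahomey. CG8539 stood at 0.0805 to 0.58 CPM and 1.33 to 2.76 CPM, and CG7120 at 4.03 to 16.8 CPM and 19.5 to 88.3 CPM. Of the 20 such genes 17 had the same sign on 1:16 P:C and 5 were called there with that sign. These are 85% and 25%, beside 69.3% and 11.1% of all tested genes. CG42700 was called there with the opposite sign. CG30098 and CG34436 complete the group with log2 fold changes of 4.92 and -2.72, the first from counts of 0 to 72 reads a library. The value of CG34436 was -1.75 without Alstonville replicate 3 and -1.51 without the 4 libraries with male transcripts.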

How the data were processed

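RNA of larvae was sequenced as poly(A) TruSeq libraries. The authors aligned paired-end reads with Subread to release 6 of the fly genome and deposited raw counts of reads per gene from featureCounts, whose version, strand setting and treatment of reads with several matches are not given in the sources used here. The table of all libraries differed from the file of each library in 0 values. Gene names and positions came from RefSeq annotation of the same release (17063 of 17207 identifiers matched). A gene was kept when 4 or more of the 16 libraries had 0.25 CPM or more (12750 genes). Counts were scaled by TMM and fitted with 1 coefficient per mitotype and diet in edgeR 4.0.16 (R 4.3.3) by the robust quasi-likelihood test, with Benjamini-Hochberg adjustment over all tested genes. All 4 groups share 1 estimate of spread, with a common biological coefficient of variation of 0.521. SE is the log2 fold change divided by the root of F. Named were every called gene, the 10 higher and 10 lower genes next in p whose libraries did not overlap and whose mean reached 1 CPM in either mitotype, up to 6 members of each list at an unadjusted p below 0.05, the genes at that level in the top window of 1 Mb, and 7 genes chosen by name (Pdk, GstE1, GstE5, Cyp6g2, Cyp6t3, Hsp68 and Hsp70Aa). rdx, IP3K2 and other list members (Pdha, Pdhb, COX1, ND4, Hsp23, Hsp83 and Hsf) were added after their values were seen. Of 371 list symbols 361 matched and 346 were tested. The lists, comparison and tests were chosen with earlier results of these data known. Alternatives were other scaling and filters, DESeq2 1.42.0, limma 3.58.1 with 0 to 3 surrogate variables, a replicate block, the 8 libraries alone and leaving out each library. 2 fits concerning male transcripts were chosen after seeing the data. Replicates within a group differed by more than sampling noise (chi-square per gene of 9.93 or more). The calling step was also run on simulated data, whose result is not given here, so nothing is drawn from it. A planned motif search of promoters was not run, and no sequence is shown.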

Additional observations from a re-analysis of the deposited data

Results flagged for a closer look

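Within the groups on 1:2 P:C, 6 of 68 groups of 4 libraries held 1 library far from the other 3 by Dixon's criterion, which chance meets in about 1 group in 20. In Alstonville replicate 1, Hsp68 was at 214 CPM (others 94.6 to 114), Hsp70Aa at 51.8 CPM (others 6.72 to 8.04) and Hsp70Bc at 9.03 CPM (others 1.09 to 1.56). In Alstonville replicate 4, GstE1 was at 18.1 CPM (others 6.70 to 7.17) and GstE5 at 5.39 CPM (others 0.735 to 1.24). In Dahomey replicate 2, CG34195 was at 4.48 CPM (others 3.64 to 3.68).

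The mitotype difference itself differed between the diets, by the interaction contrast of 1:16 minus 1:2 P:C, for NT5E-2 (-2.63), Dpp10 (-1.06) and CG42700 (-0.91 on the log2 scale). All 3 missed the threshold when the 4 libraries with male transcripts were left out.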

How the results depend on the processing

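The count of 12 called genes moved under most alternatives. It was 3 with upper-quartile scaling or with no filter beyond 1 count, 13 with RLE scaling and 14 with at least 10 counts in every library. DESeq2 called 88, and limma called 20, 25, 65 and 85 genes with 0, 1, 2 and 3 surrogate variables. The fit of 8 libraries and the threshold of 0.01 called 0 genes, with 307 and 561 at an unadjusted p below 0.05, a count that ran from 459 to 945 with 1 library left out. Leaving out 1 library gave 0 to 10. Of the alternatives chosen after seeing the data, the male covariate gave 21 and leaving out the 4 libraries with male transcripts gave 3. With the replicate block 2 genes were called, but same-numbered libraries of the mitotypes deviated together with correlations of 0.77, 0.47, -0.82 and -0.60, so the numbers do not pair them.

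The called genes kept their signs throughout on 1:2 P:C, which is a weak test because their groups did not overlap. dpr3 on 1:16 P:C turned negative with no filter (-0.0096), with 1 to 3 surrogate variables (-0.0599, -0.0856 and -0.0597) and with the male covariate (-0.014), and ranged from -0.0953 to 0.0714 over the libraries left out. Leave-one-out ranges crossed 0 for Cpr78Cc (-5.02 to 0.52), Cpr47Ec (-5.89 to 0.81), Lcp65Ag3 (-4.07 to 0.45) and Ccp84Ab (-3.24 to 1.02). The cause was not tested. The motif search was not run. Depth limits genes such as trnY and asRNA:CR43460, with under 100 reads a library. The number of lines behind a mitotype is not given, so mitotype and line cannot be told apart.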
